A study of Mus musculus with 12 samples.

Results

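The genes described here are the cytosolic ribosomal protein genes, the protein parts of the ribosome, in cultured mouse B lymphoma cells that kept or had lost their B-cell receptor (BCR). They were chosen by gene symbol, not by measured values: Rpl or Rps followed by a digit, Rplp0, Rplp1, Rplp2 or Rpsa, without kinases, binding proteins and pseudogenes. The rule found 75 genes among 18820 measured, 47 of the large and 28 of the small ribosomal subunit. The platform annotation gave them 386 of its 21218 probe sets with 1 gene symbol, and the probe set with the highest mean stood for each gene. Among ribosomal proteins outside the rule, Fau was measured as well. Rpl22l1, Rpl36al, Rpl37a and Rps16 had only probe sets that name several genes and are not among the 75.

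The cells were primary cultures of B lymphomas from l-MYC;B1-8f mice of the C57BL/6J x BALB/c strain, which carry a MYC transgene and a heavy chain variable region, B1-8f, that Cre recombinase removes. All cultures received TAT-Cre, a Cre protein that enters cells, so each held BCR-positive and BCR-negative cells of 1 tumour side by side. After 4 days without drug or with CHIR99021, an inhibitor of the kinase GSK3, both populations were sorted and total RNA was hybridised to Mouse Gene 1.1 ST arrays. From lymphomas 2564, 2646 and 2676 there was 1 array per group, and the 4 groups were BCR-positive untreated, BCR-negative untreated, BCR-positive with CHIR99021 and BCR-negative with CHIR99021. The 3 tumours are the replicates, and the labels state neither the age of the mice nor the dose of the drug. The BCR-negative cells are those still present after 4 days beside BCR-positive cells of the same culture.

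Ribosomal proteins assemble with ribosomal RNA in nearly equal numbers, so their genes are known for high and even expression in growing cells. MYC raises transcription of ribosomal protein genes and of the RNA polymerase I machinery that makes ribosomal RNA. Most ribosomal protein mRNAs begin with an oligopyrimidine tract, the 5′ TOP motif, through which the kinase mTOR controls their translation more than their amount. GSK3 restrains MYC stability and acts on the mTOR regulator TSC2. An array of total RNA reads mRNA amount and not translation.

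The cells carried the marker genes of their label. Of 9 measured B-cell markers, 7 had a mean log2 level over 7, led by Cd79b at 11.42, Cd79a at 11.28 and Pax5 at 10.20, whereas Ms4a1 (3.24) and Blk (5.84) were low. Of 7 T-cell, 9 myeloid, 4 red-cell, 7 stromal or endothelial and 5 NK-cell markers only Cd2 (8.65) and Pecam1 (8.61) exceeded 7, and both also occur in B cells. For Ighv1-72, the germline segment of B1-8, BCR-positive samples read up to 10.63, BCR-negative ones read 6.56 to 9.12, and the groups did not overlap. BCR loss gave a difference of -2.11 ± 0.331 (SE) log2 units without drug (adjusted p = 0.0176) and of -2.95 ± 0.331 with CHIR99021 (adjusted p = 0.0498).

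RefSeq promoters (build GRCm38.p6) were available for 61 of the 75 genes. Runs of pyrimidines are shown here because most ribosomal protein mRNAs are known to begin with such a tract. The symbol rule did not use sequence. A run of 8 or more pyrimidines (C or T) was sought within 20 bases before to 30 after each annotated start. It was found in 34 of the 61 genes (55.7%), against 21.5% of 27025 genes with a promoter. A gene counted if any of its annotated starts had a run. Windows of 30 bases follow, 5′ to 3′ on the gene's strand, with the run in capitals.
Rps6 chr4:86857345-86857374, minus strand: gtcgggCCTCTTTTTCgtgacgcctcccag
Rpl7a chr2:26910787-26910816, plus strand: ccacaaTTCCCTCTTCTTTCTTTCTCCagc
Rpl15 chr14:18270967-18270996, minus strand: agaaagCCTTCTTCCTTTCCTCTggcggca
Rpl26 chr11:68901581-68901610, plus strand: gtgtagTTCTCTTTCcttttgcggccatcg
Rps26 chr10:128626480-128626509, minus strand: gccggaTCCTCTTTCgagtcttggctccaa
Rps27l chr9:66946068-66946097, plus strand: tctccaCTCCTCCCCgccgcctctatcccg
The longest run of those shown, 21 bases, was that of Rpl7a, and the run of Rps6 had 10 bases. The paralogs Rpl3l and Rpl10l and the large-subunit gene Rpl22, whose values are given further on, had no such run, and for them the window covers 10 bases before to 20 after the annotated start.
Rpl3l chr17:24727816-24727845, plus strand: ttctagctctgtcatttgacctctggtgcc
Rpl10l chr12:66284382-66284411, minus strand: cctccattttgcggctggcggtgggcacgc
Rpl22 chr4:152325716-152325745, plus strand: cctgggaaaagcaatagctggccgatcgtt
An annotated start may lie some bases from the true one, so a missing run says only that these letters are not in this window. Whether a run that was found is the 5′ TOP tract itself was not tested.

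Other known promoter motifs were sought on both strands of the 300 bases from 250 before to 50 after the start. CCGGAAG, the core of the ETS and GABPA site, was in a promoter of 26 of the 61 genes (42.6%) against 9.93% of all genes. CACGTG, the E-box that MYC can bind, was in 6 (9.84%) against 8.09%. Another motif sought, a longer palindrome whose letters are not printed here, was rare among all genes. It was likewise in 6 of the 61 genes (9.84%), against 0.525% of all genes, so CCGGAAG was not the only motif in excess. On its other strand CCGGAAG reads CTTCCGG, which begins with pyrimidines, so a match near the start can share bases with a pyrimidine run. A match is a description of the sequence, not of binding.

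Ribosomal protein probe sets were bright and even. The mean log2 level over the 12 arrays ran from 3.91 (Rpl39l, the testis paralog of Rpl39) to 12.36 (Rps6), with a median of 11.48, against 5.13 over all genes. Brightness on an array depends on the probes as well as on the RNA, so no gene is ranked above another here. Of the 75 genes, 64 had a mean of 9 or more and 11 a lower one. These 11 were Rpl10l, Rpl14, Rpl22, Rpl30, Rpl32l, Rpl35a, Rpl39l, Rpl3l, Rplp2, Rps23rg1 and Rps4l, of which 6 are paralogs or retrogenes. Another is Rplp2 of the ribosomal stalk, whose single probe set averaged 5.65, and how well that probe set reads its mRNA was not tested.

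Between its highest and lowest array, a ribosomal protein gene spanned a median of 0.208 log2 units (0.0701 to 1.98), against 0.426 over all genes. The widest ranges were those of Rpl3l (1.98), Rps9 (0.818) and Rpl26 (0.776). Rpl3l, a paralog of Rpl3 known from heart and skeletal muscle, differed most between groups as well as between tumours. Rpl26, a large-subunit protein near the exit tunnel that is also known to bind Trp53 mRNA, differed chiefly between tumours, which held 87.7% of its variation. Over the 75 genes the tumours held a median of 30.4% and the groups 29.3% of the sum of squares, against 36.8% and 21.3% over all genes.

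**Figure D1:**
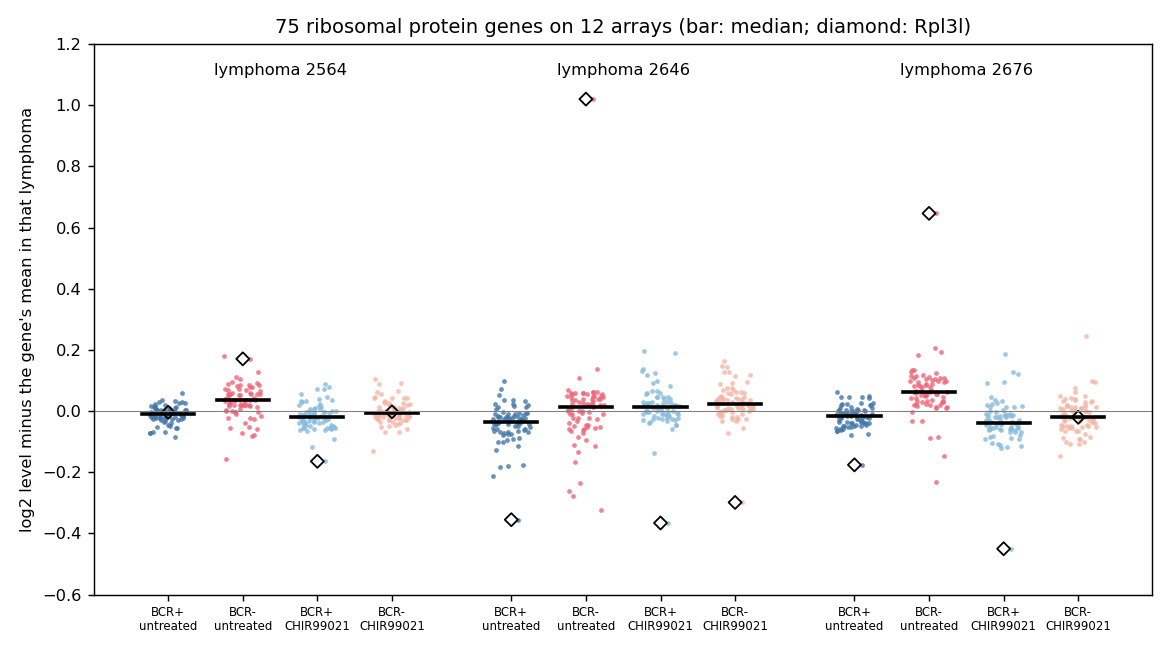
Log2 level of each of the 75 ribosomal protein genes minus that gene's mean in the same lymphoma (y axis), for the 12 arrays (x axis). Points are genes, bars are medians and diamonds mark Rpl3l; the bar of untreated BCR-negative cells lies above that of untreated BCR-positive cells in each lymphoma, by less than 0.1, but with array medians subtracted the median difference is -0.03 in 2564, 0.02 in 2646 and -0.00 in 2676; Rpl3l lies far above the others in untreated BCR-negative cells of lymphomas 2646 and 2676.

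Loss of the BCR without drug changed no ribosomal protein gene past the threshold. Here and below, changes are log2 differences fitted with limma over all 12 arrays with lymphoma as a block, given with their SE, and a gene was called at a Benjamini-Hochberg adjusted p under 0.05 over all 18820 genes. None of the 75 genes was called, while 791 of all genes (4.2%) were. At an unadjusted p under 0.05 there were 9, of which 8 read higher and 1 lower in BCR-negative cells, and the share over all genes was 20.5%. The differences were small and mostly of 1 sign: 62 of the 75 were positive, where 49% of all genes were, and the median was 0.05, against -0.00 over all genes. In lymphomas 2564, 2646 and 2676 the median was 0.05, 0.05 and 0.08. In 41 genes the BCR-negative cells read higher in all 3 tumours (18% of all genes did so), and in 3 genes, Rpl34, Rpl7l1 and Rps27l, lower in all 3 (21.8%).

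That sign depends on how arrays are scaled. The median over all probe sets of an array was itself higher in untreated BCR-negative cells, by 0.06, and with array medians subtracted the ribosomal protein median became -0.01 with 33 genes positive (-0.03, 0.02 and -0.00 in the 3 tumours), while that of all genes became -0.06. Cyclic loess moved it to 0.08 with 68 positive. The array median moved with the ribosomal protein median, and its part in the 0.05 was not tested. Equal amounts of total RNA, 150 ng, were labelled for each array, and total RNA is mostly ribosomal, so a change in ribosomes per cell, in cell number or in RNA per cell cannot be told apart from these values.

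The 95% interval of the difference reached a median of 0.120 log2 units to either side of the estimate. It lay within 0.3 log2 units of 0, a 1.23-fold change in either direction, for 70 of the 75 genes, and within 0.2, a 1.15-fold change, for 45. Rpl3l alone reached beyond 0.5.

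**Figure D2:**
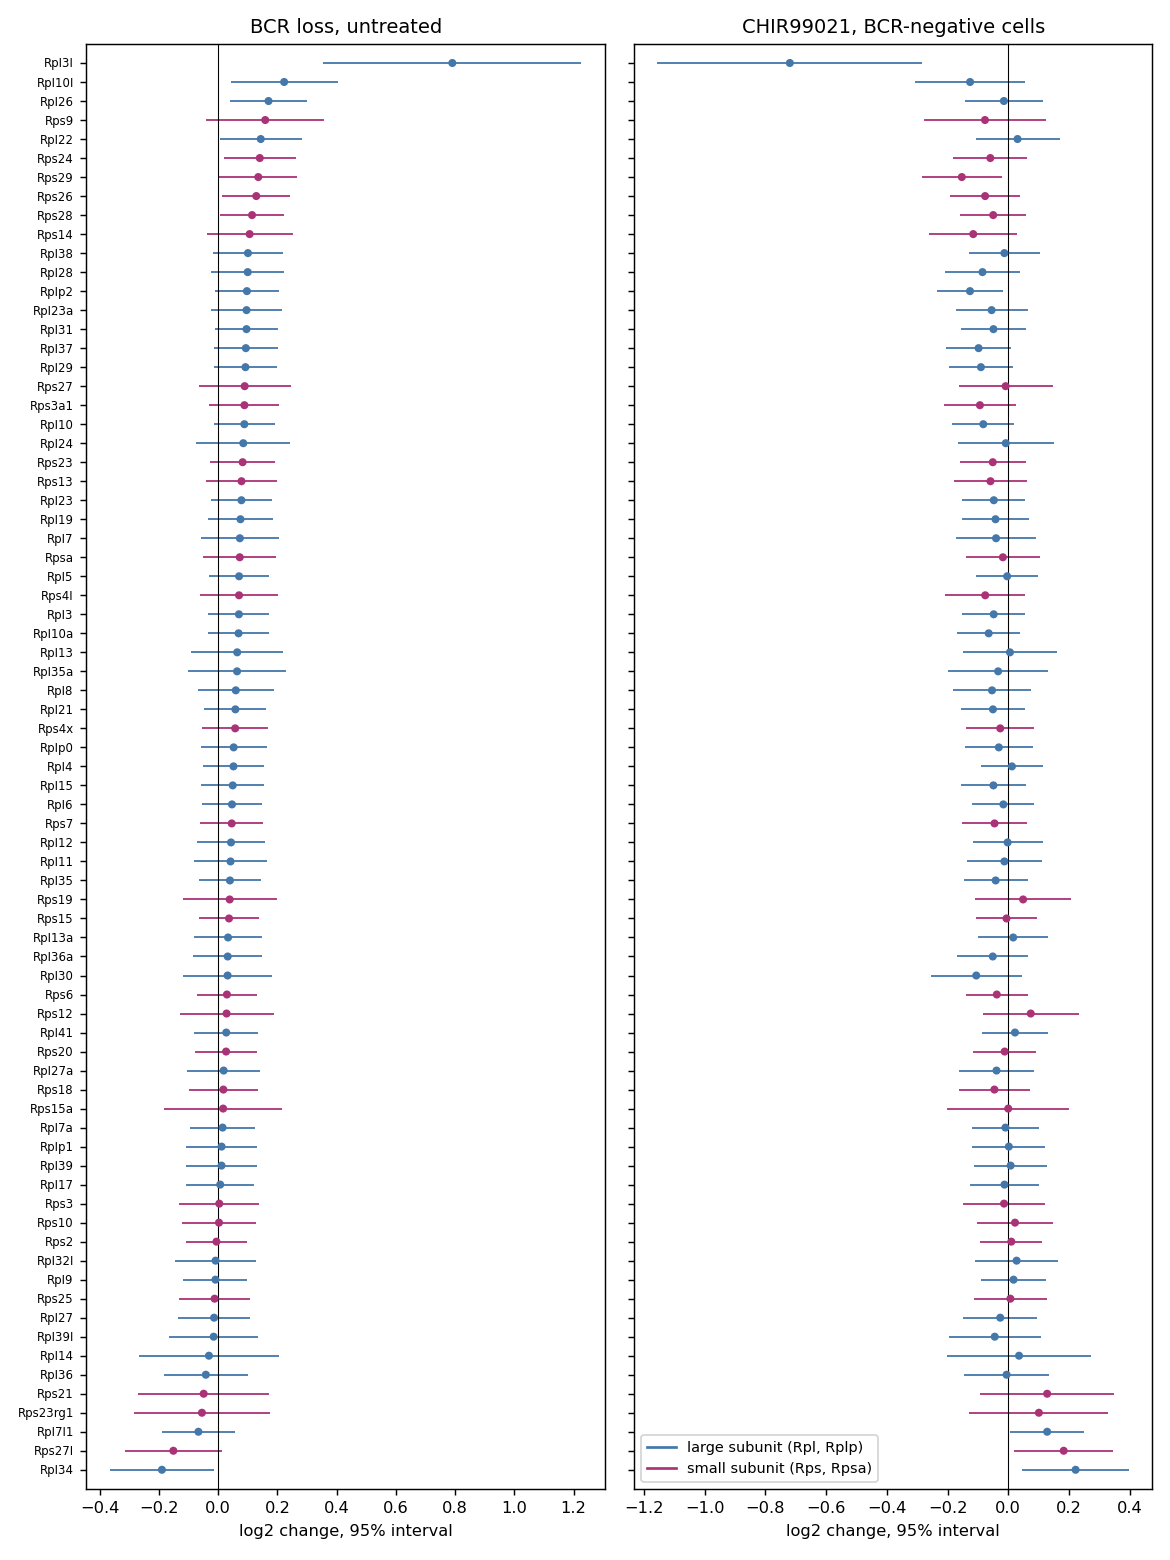
Fitted log2 change (points) with 95% interval (lines) of each of the 75 ribosomal protein genes (rows, in the order of the left panel), for BCR-negative minus BCR-positive cells without drug (left) and CHIR99021 minus untreated in BCR-negative cells (right). Most intervals cross 0, and Rpl3l stands apart at 0.79 on the left and -0.72 on the right.

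By role, the genes for the ribosome's moving and catalytic parts all sat close to the common shift without drug. Of the stalk, which recruits elongation factors, Rplp0 read 12.23, 12.19 and 12.26 in BCR-positive and 12.31, 12.25 and 12.27 in BCR-negative cells of lymphomas 2564, 2646 and 2676. The BCR-negative values were higher in each tumour but the groups overlapped, and the difference was 0.05 ± 0.0499 (adjusted p = 0.651). Rplp1 differed by 0.01 ± 0.0538 and the dim Rplp2 by 0.10 ± 0.0489 (adjusted p = 0.949 and 0.310). With a brighter probe set that names several genes, Rplp2 differed by -0.04 (adjusted p = 0.851). Rpl5 and Rpl11, which carry the 5S RNA and, when free, hold MDM2 away from p53, differed by 0.07 ± 0.0459 and 0.04 ± 0.0556. Rpl3, whose protein lies near the catalytic centre, differed by 0.07 ± 0.0460 (adjusted p = 0.463).

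Rps6, the substrate of S6 kinase and the classical readout of mTOR signalling at the protein level, was among the even genes. It read 12.36, 12.35 and 12.36 in untreated BCR-positive and 12.37, 12.40 and 12.39 in untreated BCR-negative cells. With CHIR99021 it read 12.31, 12.37 and 12.37 in BCR-positive and 12.35, 12.35 and 12.35 in BCR-negative cells. The 12 values spanned 0.0972 log2 units, and the untreated groups did not overlap, with a difference of 0.03 ± 0.0452 (adjusted p = 0.808). The highest value of any probe set was 12.65 to 12.76 on the 12 arrays, so Rps6 and other bright members lay near the top of the scale. Whether the scale is compressed there, which would narrow ranges and intervals, was not tested.

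The genes lining the mRNA exit showed the largest median of the role groups made of ribosome parts, 0.11. In the deposited scaling all 5 were higher in BCR-negative cells in all 3 tumours. The array medians were themselves higher, by 0.08, 0.03 and 0.08 in lymphomas 2564, 2646 and 2676, so such signs can depend on the scaling. The role groups were drawn up with the values known, so the order of the groups is a description. Rps26, which contacts mRNA upstream of the start codon, read 11.94, 11.89 and 11.89 in BCR-positive and 12.02, 12.04 and 12.05 in BCR-negative cells without drug. The groups did not overlap, and the difference was 0.13 ± 0.0512 (adjusted p = 0.188). Rps28, a neighbour of Rps26 at the exit, read 11.61, 11.52 and 11.58 against 11.69, 11.66 and 11.70, again without overlap, and differed by 0.11 ± 0.0488 (adjusted p = 0.221). Rps14 differed by 0.11 ± 0.0647 and Rpsa by 0.07 ± 0.0548.

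At the peptide exit tunnel and its rim all 9 genes had a positive difference in the deposited scaling, with a median of 0.08. The array median was itself higher by 0.06. Rpl26 read 9.53, 9.30 and 9.89 in BCR-positive and 9.63, 9.52 and 10.08 in BCR-negative cells without drug. The groups overlapped widely, but within each tumour the BCR-negative value was the higher, and the difference was 0.17 ± 0.0574 (adjusted p = 0.123). Rpl22, which is not needed for translation in general and is known for its role in lymphocyte development and as a target of loss in lymphoid tumours, read 7.61, 7.64 and 7.68 against 7.66, 7.88 and 7.82. Its highest BCR-positive value, in lymphoma 2676, exceeded the lowest BCR-negative value, in lymphoma 2564, and the difference was 0.14 ± 0.0618 (adjusted p = 0.226).

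At the mRNA entry and decoding site 4 of 5 genes had a positive difference in the deposited scaling, with a median of 0.04. Rps3, which helps unwind incoming mRNA, differed by 0.00 ± 0.0605. Rps9 spanned 0.818 over the arrays but differed by 0.16 ± 0.0891 between groups (adjusted p = 0.369), with a negative value in lymphoma 2564 (-0.07) and positive ones in 2646 (0.31) and 2676 (0.23). Rps19, the gene most often mutated in Diamond-Blackfan anaemia, differed by 0.04 ± 0.0708 (adjusted p = 0.846). Rps24 (0.14 ± 0.0544) and Rps29 (0.14 ± 0.0590), both small-subunit genes likewise linked to that anaemia, had adjusted p of 0.175 and 0.231. Rps24 and Rps26 lie outside the rule for named genes and were named after their values were seen.

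In the deposited scaling 13 of the 75 genes went against the majority, with a negative difference. With array medians subtracted 42 were negative. Rpl34, a large-subunit protein, read 10.93, 10.76 and 10.88 in BCR-positive and 10.89, 10.42 and 10.68 in BCR-negative cells without drug. It was lower in every tumour, with 1 BCR-negative value, in lymphoma 2564, above both other BCR-positive ones, and the difference was -0.19 ± 0.0783 (adjusted p = 0.204). Rpl34 has 1 probe set of its own, and with a brighter probe set that names several genes the difference was 0.01 (adjusted p = 0.968). Rps27l, a paralog of Rps27 known as a p53 target, read 10.83, 10.78 and 10.54 against 10.68, 10.50 and 10.52. It differed by -0.15 ± 0.0726 (adjusted p = 0.283), almost none of it in lymphoma 2676 (-0.02). Rps27 itself differed by 0.09 ± 0.0692, and Rpl7l1, a paralog of Rpl7 that acts in ribosome assembly, by -0.07 ± 0.0546 against 0.07 ± 0.0593 for Rpl7.

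Rpl3l had the largest difference of the 75 in size. It read 4.64, 4.83 and 5.64 in untreated BCR-positive cells of lymphomas 2564, 2646 and 2676, and 4.82, 6.20 and 6.46 in untreated BCR-negative cells. With CHIR99021 it read 4.48, 4.82 and 5.37 in BCR-positive and 4.65, 4.88 and 5.80 in BCR-negative cells. The high values were those of untreated BCR-negative cells in lymphomas 2646 and 2676, and lymphoma 2564 was low throughout. The difference without drug was 0.79 ± 0.195 (95% interval 0.35 to 1.23, adjusted p = 0.0529), 0.17, 1.37 and 0.82 in the 3 tumours.

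Whether Rpl3l was called rested on the setting. It was called with dim genes left out (adjusted p = 0.0423), with array medians subtracted (0.73, adjusted p = 0.0485), without lymphoma 2564 (1.10, adjusted p = 0.0163) and without the untreated BCR-negative array of 2564 (1.08, adjusted p = 0.00469). Without lymphoma 2646 the difference was 0.50 (adjusted p = 0.380), and without that tumour's untreated BCR-negative array 0.52 (adjusted p = 0.149). Nor was Rpl3l called without lymphoma 2676 (0.77, adjusted p = 0.269) or without the lymphoma block (adjusted p = 0.883). The same held with a random block (adjusted p = 0.216), with only the arrays compared (adjusted p = 0.157) and in the remaining settings. Its parent Rpl3 read 11.90, 11.89 and 11.94 in untreated BCR-positive and 11.95, 11.98 and 12.01 in untreated BCR-negative cells, a difference of 0.07 with a 95% interval from -0.03 to 0.17. Rpl10l, a retrogene of Rpl10 known from testis, lay near the dim end of the array at 3.87, 3.74 and 3.91 against 4.12, 4.00 and 4.07. Its groups did not overlap, and its difference was 0.22 ± 0.0808 (adjusted p = 0.147). At this level the array resolves little, and how the log2 difference relates to a change in RNA was not tested.

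**Figure D3:**
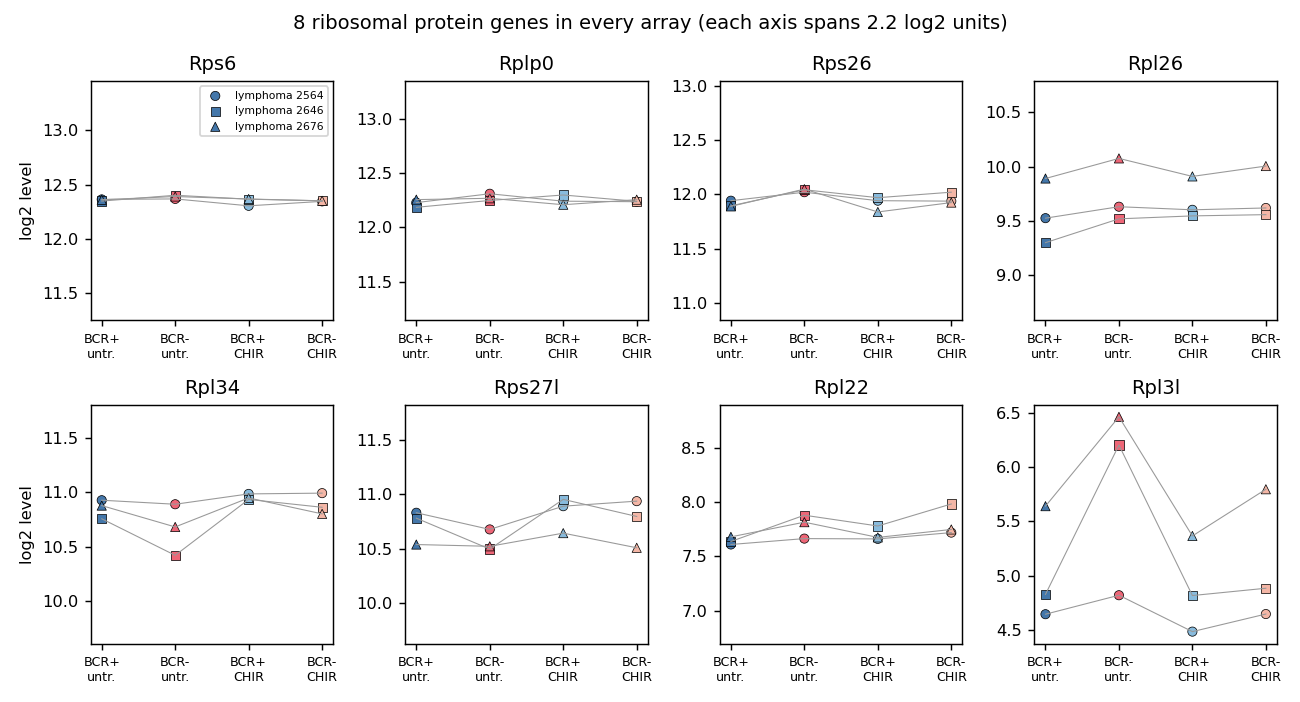
Log2 level (y axis, each panel spanning the same length of scale) of 8 ribosomal protein genes in the 4 groups (x axis), with a symbol for each lymphoma and lines joining arrays of 1 lymphoma. Rps6 and Rplp0 are nearly level, Rpl26 differs by tumour, Rpl34 dips in untreated BCR-negative cells, as does Rps27l in lymphomas 2564 and 2646 but not in 2676, and Rpl3l peaks there in lymphomas 2646 and 2676.

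With CHIR99021 present, BCR-negative and BCR-positive cells did not differ past the threshold in any ribosomal protein gene. None of the 75 was called (0.0159% of all genes, 3 genes, were), and none had an unadjusted p under 0.05, against 8.65% of all genes. The median was 0.01, and 53 of the 75 differences were positive where 52.3% of all genes were. In 22 genes the BCR-negative cells read higher in all 3 tumours (17.8% of all genes) and in 3, Rpl27, Rpl39l and Rpl8, lower (13.9%). With array medians subtracted the median became -0.04 with 16 positive. The 95% interval lay within 0.3 log2 units of 0 for 74 of the 75 genes, all but Rpl3l (0.22 ± 0.195).

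The smallest p on the higher side was that of Rpl22. With the drug it read 7.66, 7.78 and 7.67 in BCR-positive and 7.72, 7.98 and 7.75 in BCR-negative cells of lymphomas 2564, 2646 and 2676, higher in each tumour. The difference was 0.11 ± 0.0618 (adjusted p = 0.637), close to the 0.14 seen without drug. Rpl38, which is known to favour translation of Hox mRNAs, and Rpl39, at the exit tunnel, differed by 0.09 ± 0.0522 and 0.09 ± 0.0536. On the lower side were the testis paralog Rpl39l (-0.11 ± 0.0675), Rps27l (-0.08 ± 0.0726) and Rpl27 (-0.06 ± 0.0542), with adjusted p of 0.661, 0.780 and 0.782.

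CHIR99021 left ribosomal protein genes of BCR-positive cells near their untreated level. None was called (0.0744% of all genes, 14 genes, were), and none had an unadjusted p under 0.05 against 10% of all genes. The median difference was 0.00, with 38 of 75 positive (51.2% of all genes were), and -0.01, 0.05 and -0.01 in lymphomas 2564, 2646 and 2676. With array medians subtracted it became 0.05 with 68 positive. In 19 genes the treated cells read higher in all 3 tumours (18.6% of all genes) and in 7 lower (16.8%). The interval lay within 0.3 log2 units of 0 for 73 genes.

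The smallest p belonged to Rpl7l1. It read 10.40, 10.42 and 10.30 in untreated and 10.50, 10.52 and 10.43 in treated BCR-positive cells, higher in each tumour, and the groups did not overlap. The difference was 0.11 ± 0.0546 (adjusted p = 0.543). Rpl26 differed by 0.11 ± 0.0574 and Rpl10l by 0.13 ± 0.0808, both mostly in lymphoma 2646 (0.25 and 0.34). On the lower side Rpl39 (-0.07 ± 0.0536), Rplp2 (-0.06 ± 0.0489) and Rpl30 (-0.08 ± 0.0670) came first, with adjusted p of 0.727, 0.754 and 0.755.

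In BCR-negative cells the differences between CHIR99021 and no drug were mostly negative. The comparison shares its untreated BCR-negative arrays with the one on BCR loss without drug, so its signs are not independent of those. None of the 75 genes was called (3.68% of all genes, 692 genes, were). At an unadjusted p under 0.05 there were 6, Rpl34, Rps27l and Rpl7l1 higher and Rpl3l, Rps29 and Rplp2 lower, against 19% of all genes. The median was -0.03, with 20 of 75 changes positive (54.2% of all genes), and -0.04, 0.01 and -0.07 in the 3 tumours. In 28 genes the treated cells read lower in all 3 tumours (16% of all genes) and in 2, Rpl34 and Rpl7l1, higher (21.2%). With array medians subtracted the median turned to 0.03 with 60 positive, and with cyclic loess it was -0.06 with 7 positive. Its sign too rests on the scaling. The interval lay within 0.3 log2 units of 0 for 69 genes.

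Rpl34 read 10.89, 10.42 and 10.68 in untreated and 10.99, 10.86 and 10.80 in treated BCR-negative cells. It was higher in each tumour, most in lymphoma 2646 (0.44), and differed by 0.22 ± 0.0783 (adjusted p = 0.152). With the probe set that names several genes it differed by -0.04 (adjusted p = 0.840). Rps27l read 10.68, 10.50 and 10.52 against 10.94, 10.80 and 10.51, higher in lymphomas 2564 and 2646 and level in 2676, and differed by 0.18 ± 0.0726 (adjusted p = 0.205). Rpl7l1 differed by 0.13 ± 0.0546 (adjusted p = 0.241), close to its 0.11 in BCR-positive cells.

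On the lower side Rpl3l differed by -0.72 ± 0.195 (95% interval -1.16 to -0.28, adjusted p = 0.0738), by -0.17, -1.32 and -0.67 in lymphomas 2564, 2646 and 2676. It was called without lymphoma 2564 (-0.99, adjusted p = 0.0455) and without the untreated BCR-negative array of 2564 (-1.01, adjusted p = 0.00736). Without lymphoma 2646 the change was -0.42 (adjusted p = 0.420), and without that tumour's untreated BCR-negative array it was -0.45 (adjusted p = 0.205). Rpl3l was not called in the remaining settings either, such as a random block (adjusted p = 0.285) or only the arrays compared (adjusted p = 0.178). Rps29, a small-subunit zinc-binding protein, read 10.76, 10.52 and 10.79 in untreated and 10.63, 10.50 and 10.49 in treated BCR-negative cells, and differed by -0.15 ± 0.0590 (adjusted p = 0.190). The stalk gene Rplp2 differed by -0.13 ± 0.0489 (adjusted p = 0.192), whereas Rplp0 and Rplp1 differed by -0.03 ± 0.0499 and 0.00 ± 0.0538. In the deposited scaling all 5 mRNA exit genes had a negative change, with a median of -0.08. Of the exit tunnel genes 6 of 9 did, with a median of -0.01. The array median itself changed by -0.06.

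The interaction asks whether the effect of BCR loss differed with and without CHIR99021. No gene of the 75 was called, nor any of the 18820 (0%), and 1 of the 75, Rpl10l, had an unadjusted p under 0.05 (-0.26 ± 0.114, adjusted p = 0.928), against 5.26% of all genes. The median was -0.03, with 15 of 75 positive (54% of all genes), and 25 genes were negative in all 3 tumours (12% of all genes) and 2, Rpl32l and Rpl34, positive (16.4%). Rpl3l had -0.57 ± 0.275 (adjusted p = 0.928), which rested on lymphomas 2646 (-1.31) and 2676 (-0.39) and was -0.01 in 2564. Rps28 came next on the negative side (-0.12 ± 0.0690), and Rpl39 (0.08 ± 0.0759) and Rpl34 (0.12 ± 0.111) on the positive side. The interaction's intervals were wider, reaching a median of 0.170 to either side, and lay within 0.3 log2 units of 0 for 60 of the 75.

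**Figure D4:**
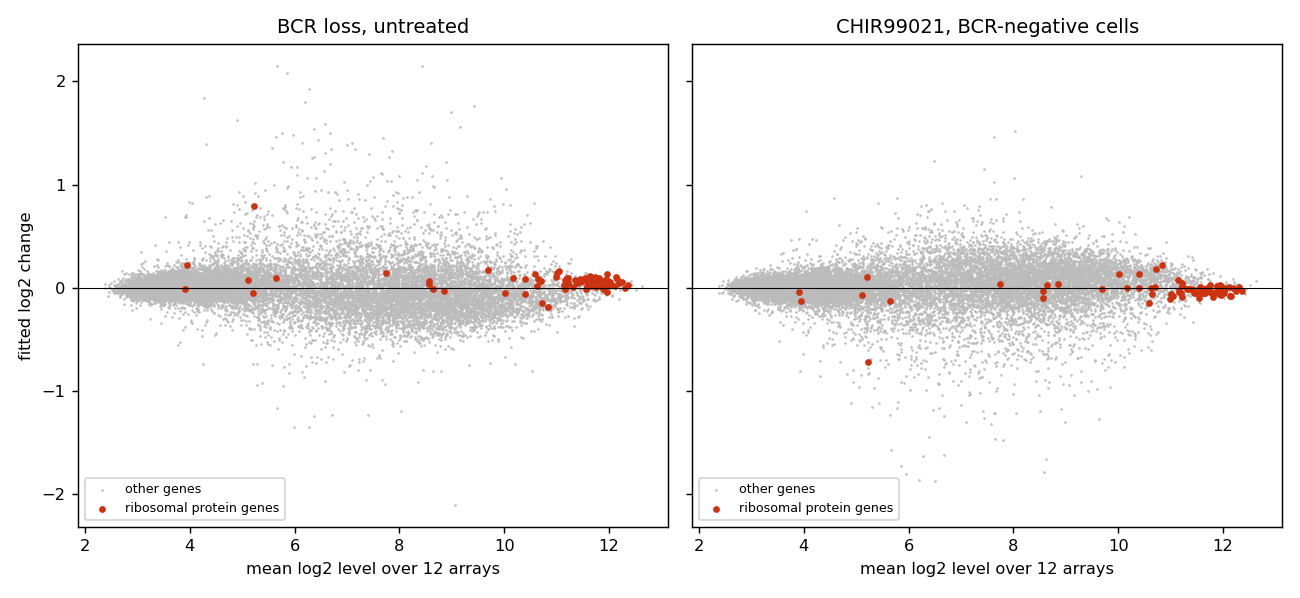
Fitted log2 change (y axis) against mean log2 level over the 12 arrays (x axis) for all 18820 genes, for BCR loss without drug (left) and CHIR99021 in BCR-negative cells (right). Ribosomal protein genes, in red, gather at the bright end close to 0 while other bright genes spread widely; the outlying red point at a level near 5 is Rpl3l.

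The ribosomal protein genes were also set beside the 2550 other genes with a mean level of 9 or more. Most of those were dimmer, with a median level of 9.75 against 11.63 for the 64 ribosomal protein genes above that level. Under BCR loss without drug the other genes had a median of -0.07, with 68 called higher and 131 lower. The 64 ribosomal protein genes had a median of 0.05, a difference of 0.125, and 0.104, 0.137 and 0.154 in lymphomas 2564, 2646 and 2676. With CHIR99021 in BCR-negative cells the other genes had a median of 0.06, with 94 called higher and 68 lower. The ribosomal protein genes had -0.02, a difference of -0.085, and -0.098, -0.058 and -0.114 in the tumours. The opposite signs depend on the scaling. With array medians subtracted the medians were -0.01 and -0.14 under BCR loss, and 0.04 and 0.12 for the drug. There the signs were shared, with ribosomal protein genes nearer 0 in both. Cyclic loess kept the opposite signs, with 0.08 and -0.03 under BCR loss, and -0.06 and 0.02 for the drug. Among genes with a mean of 11 or more, a limit chosen after seeing the data, the differences between 52 ribosomal protein and 217 other genes were 0.102 and -0.073. Subtracting a constant from each array cannot move a difference between 2 medians of the same genes. Over 24 alternative settings the differences at a mean of 9 or more ranged from 0.106 to 0.150 and from -0.107 to -0.068. Several of these settings could not move the differences. Fitted changes stay the same without the block, with a random block, with only the arrays compared and with eBayes with trend. They also stay the same when an array outside the comparison is left out. For BCR loss with the drug and for the drug in BCR-positive cells the differences were 0.031 and -0.007, the former -0.003 in lymphoma 2564. No test was made of them, since genes of 1 array are not replicates.

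Of 19 measured genes of RNA polymerase I and ribosome assembly, 3 fell under BCR loss without drug, where 4.2% of all genes and 7.8% of the other genes with a mean of 9 or more were called. All 19 had a negative difference, with a median of -0.15, against 51% of all genes and 67.8% of those other bright genes. Rrn3, which brings polymerase I to ribosomal DNA, fell by 0.28 ± 0.0546 (adjusted p = 0.0292), by 0.27, 0.29 and 0.29 in the 3 tumours. Polr1e, a polymerase I subunit, fell by 0.38 ± 0.0827 (adjusted p = 0.0384), and Ltv1, an assembly factor of the small subunit, fell by 0.37 ± 0.0826 (adjusted p = 0.0427). With CHIR99021 in BCR-negative cells 18 of the 19 were positive, with a median of 0.13, against 54.2% of all genes and 65.6% of the other bright genes, and Rrn3 rose by 0.27 ± 0.0546 (adjusted p = 0.0314). With array medians subtracted the list and the ribosomal protein genes had medians of the same sign, -0.21 and -0.01 under BCR loss and 0.18 and 0.03 for the drug. With cyclic loess the signs stayed opposite, -0.12 and 0.08 under BCR loss and 0.08 and -0.06 for the drug. No member of the list was called in the other comparisons, in which the medians were -0.10 (BCR loss with CHIR99021) and 0.07 (CHIR99021 in BCR-positive cells). Without lymphoma 2646 or 2676 none of these genes was called in either comparison, and without lymphoma 2564 Rrn3 was not. Nor was any called without the lymphoma block, with a random block or with only the arrays compared. Under BCR loss without drug, 0 were called without any 1 of the 3 untreated BCR-positive arrays, the untreated BCR-negative arrays of 2646 and 2676 or the treated BCR-negative array of 2646, 5 without the untreated BCR-negative array of 2564, and only Rrn3 with cyclic loess. With CHIR99021 in BCR-negative cells, Rrn3 was not called without any 1 of the untreated BCR-negative arrays, the treated BCR-negative arrays of 2564 and 2646 or the untreated BCR-positive array of 2676. The list was drawn up with earlier results of these data known.

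Other mRNAs that share the 5′ TOP motif had medians near 0 in the deposited scaling, with 1 gene called. Of 27 measured translation factors and other TOP mRNAs, 13 had a positive difference under BCR loss without drug, with a median of -0.01, and 14 for the drug in BCR-negative cells, with a median of 0.02. With array medians subtracted these counts were 7 and 23, with medians of -0.07 and 0.08. With cyclic loess they were 17 and 12, with medians of 0.03 and -0.01. Eef1a1, which brings aminoacyl-tRNA to the ribosome, differed by 0.04 ± 0.0478, and Eef2, the translocation factor, by 0.09 ± 0.0462 (adjusted p = 0.725 and 0.339). Eef1d, a subunit of the exchange factor of Eef1a1, fell by 0.40 ± 0.0844 (adjusted p = 0.0354) and rose by 0.38 ± 0.0844 with CHIR99021 in BCR-negative cells (adjusted p = 0.0406). In both comparisons Eef1d was not called without lymphoma 2646 or 2676, with cyclic loess, without the block, with lymphoma as a random block of estimated correlation or with only the arrays compared. For the drug it was not called without lymphoma 2564 either. For BCR loss it was not called without any 1 of the untreated BCR-positive arrays, the treated BCR-positive or untreated BCR-negative arrays of 2646 and 2676, or the treated BCR-negative array of 2646. For the drug it was not called without any 1 of the untreated BCR-negative arrays, the treated BCR-negative arrays of 2564 and 2646, or the BCR-positive arrays of 2646 and 2676. In the other comparisons no gene of the list was called. Fau, the ribosomal protein outside the symbol rule, differed by 0.05 ± 0.0518 under BCR loss without drug (adjusted p = 0.698), beside a median of 0.05 for the 75. Of 9 measured genes of mTOR signalling to translation, none was called in any comparison, and the medians were 0.03 and -0.03 for BCR loss without and with drug, and 0.08 and -0.05 for the drug in BCR-positive and BCR-negative cells.

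**Figure D5:**
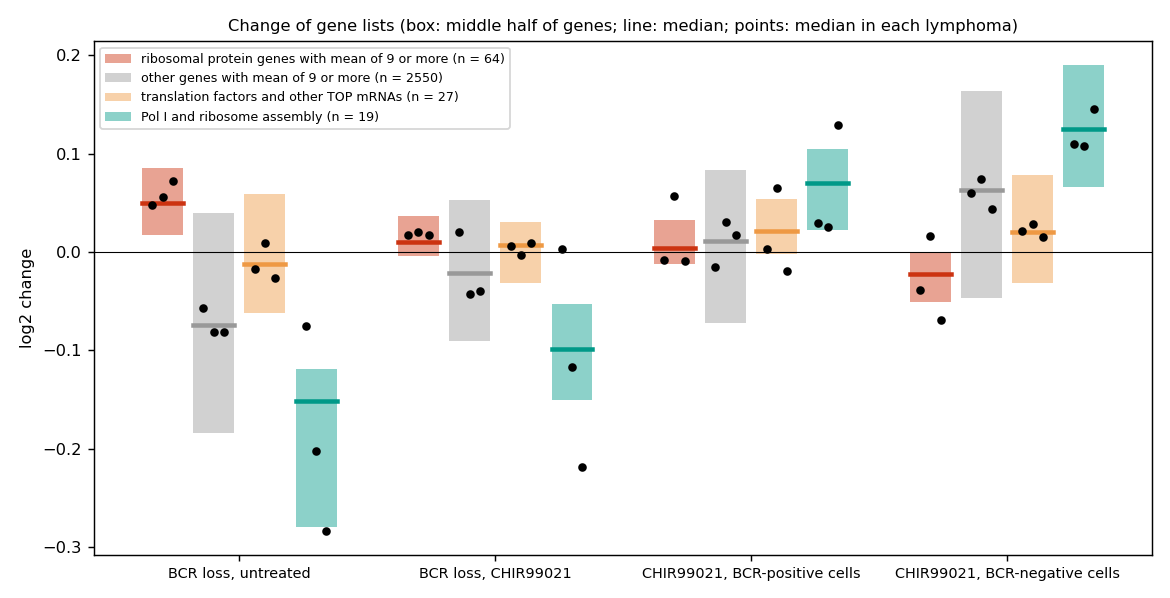
Log2 change (y axis) of 4 gene lists in 4 comparisons (x axis). Boxes span the middle 50% of genes, lines are medians and points are the medians in lymphomas 2564, 2646 and 2676; under BCR loss without drug ribosomal protein genes of mean level 9 or more lie at 0.05 (-0.01 with array medians subtracted) and polymerase I and assembly genes at -0.15.

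Genes with and without the pyrimidine run had like medians. Under BCR loss without drug the 34 genes with a run had a median of 0.04 and the 27 without 0.05. With CHIR99021 in BCR-negative cells the medians were -0.01 and -0.03. The medians of the large and small subunit were 0.05 and 0.04 under BCR loss without drug and -0.03 and -0.02 with CHIR99021 in BCR-negative cells. These are descriptions with no test.

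Probe sets of 1 gene mostly gave the same sign. Of the 75 genes, 19 had 1 probe set, 56 had 2 or more and 8 had 10 or more. In the deposited scaling all 41 probe sets of Rpl21 had a positive difference under BCR loss without drug (0.04 to 0.09), as had all 24 of Rpl29 (0.09 to 0.15). The array median was itself higher by 0.06, inside the range of Rpl21 and below that of Rpl29. Rps2 had 5 positive of 18 (-0.02 to 0.04) and Rpl36 1 of 10 (-0.07 to 0.03). These 4 genes were named for their many probe sets and after their values were seen. Fitted one by one, none of the 386 probe sets was called in any comparison, while 785 of all 21218 were under BCR loss without drug. At an unadjusted p under 0.05 there were 38, 2, 1, 9 and 1 in the 5 comparisons in the order given above, or 9.84%, 0.518%, 0.259%, 2.33% and 0.259% of the 386. Over all 21218 probe sets the shares were 20.4%, 8.5%, 9.93%, 18.7% and 5.26%. Ribosomal protein genes have many processed pseudogenes, and how far probe sets of 1 symbol read such copies was not tested. Probe sets of 1 gene may share bases, so a shared sign is not replication.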

How the data were processed

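Expression was measured on 12 Mouse Gene 1.1 ST arrays. The authors deposited log2 values for each probe set. The submitters' processing notes name RMA and Affymetrix Power Tools, with no version given. Of 35556 probe sets the platform annotation listed 23099, of which 1881 name several genes and were left out. No filter or rescaling was applied. limma 3.58.1 in R 4.3.3 fitted group and lymphoma to the 12 arrays, which leaves 6 residual degrees of freedom; variances were moderated with eBayes and p-values adjusted by Benjamini-Hochberg over 18820 genes. Per the labels, the 4 arrays of a number come from 1 tumour. Deviations from the group means correlated at r of 0.813 to 0.907 within a tumour (18 pairs) and -0.625 to -0.248 between tumours (48 pairs). Subtracting group means itself pushes the correlations between tumours to negative values, so their sign says nothing about the pairing. The fit was tested on simulated data. The number of arrays limits the precision.

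The members and all gene lists were chosen with earlier results of these data known. Named were the 3 genes of smallest p in each direction per comparison, role genes and paralogs with their parents, and the brightest, dimmest and 3 widest-ranging members. Alternatives were no block, a random block, only the arrays compared, dim genes left out, probe sets averaged per gene, array medians subtracted, cyclic loess, eBayes with trend, several-symbol probe sets kept, and each lymphoma or array left out. Probe sets fitted one by one, a mean level of 11 or more, and the same alternatives for the bright genes and other lists, were added after seeing the data. Promoters came from RefSeq (GRCm38.p6).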

Additional observations from a re-analysis of the deposited data

How the results depend on the processing

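No ribosomal protein gene was called in 118 of 124 alternative fits, and 1 gene, Rpl3l, in the other 6. Under BCR loss without drug these were the fits with dim genes left out (73 genes kept), 1 called, and with array medians subtracted, 1 called. Leaving out lymphomas or arrays gave 0 to 1 called for BCR loss without drug and for CHIR99021 in BCR-negative cells, and 0 to 0 in the other comparisons. Without the replicate block 0 were called in every comparison and the medians stayed the same. With array medians subtracted the medians were -0.0099 (BCR loss, untreated), -0.037 (BCR loss with CHIR99021), 0.048 (CHIR99021, BCR-positive), 0.033 (CHIR99021, BCR-negative) and -0.019 (interaction). By construction these move with the array medians. Cyclic loess gave 0.078 (BCR loss, untreated), 0.023 (BCR loss with CHIR99021), -0.012 (CHIR99021, BCR-positive), -0.056 (CHIR99021, BCR-negative) and -0.051 (interaction). The cause was not tested. With arrays left out the medians ranged from 0.037 to 0.075, 0.0010 to 0.030, -0.014 to 0.022, -0.054 to -0.0051 and -0.060 to -0.021, in the same order. Of 3917 values of single named genes under alternatives, 6, all of Rpl3l, passed the threshold, which none passed as reported. The sign of the difference turned in 309, none of them called as reported: 53 of 165 with array medians subtracted, 14 of 165 with cyclic loess, 218 of 2475 with arrays left out and 24 of 1112 under the others. With several-symbol probe sets kept, Rpl34 turned in each comparison but BCR loss with drug, and Rplp2 under BCR loss without and with drug and for CHIR99021 in BCR-positive cells. The interaction already uses all 12 arrays, so a fit of only the arrays compared gave no separate value. Genes near 4 on the log2 scale, such as Rpl10l and Rpl39l, lie where the array resolves little.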

Other observations

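Ribosomal protein genes varied together from array to array. After subtracting each lymphoma's mean, 51 of the 75 (68%) correlated above 0.5 with the members' median over the 12 arrays, against 12.7% of all genes, and the members enter that median. Outside the list, the genes most like the median were Trav12-2 (r = 0.942), Ces5a (0.926), Gpha2 (0.915), Terc (0.911) and Srebf2 (0.909). Terc, the RNA of telomerase, and Srebf2, a regulator of cholesterol synthesis, had mean levels of 10.89 and 10.07, whereas Trav12-2, Ces5a and Gpha2 lay between 4.69 and 5.46. These are descriptions over 12 arrays that share their normalisation and, in fours, their tumour.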
